A study of Mus musculus with 7 samples.

Results

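The collagen genes were taken as every protein-coding gene of the deposited count table whose symbol is Col, a number, the letter a and a number. This gave 44 of the 55536 genes listed, 22028 of which are protein coding. They were measured by RNA-seq in the brains of 7 C57BL/6 mice labelled postnatal day 0. The 3 Setd2SRI/wt animals (1 male and 2 females) carried 1 copy of the R2483H change in the SRI domain of Setd2, the enzyme that trimethylates lysine 36 of histone H3. The 4 wild-type animals (2 males and 2 females) were their littermates. The labels name no Cre, transgene or treatment in either group, and litter membership was not labelled for single animals. Only 1 Setd2SRI/wt male was sequenced, so anything said of males of that genotype rests on 1 brain. The p-values set a difference against 1 spread estimated over these 7 brains, and the single Setd2SRI/wt male has no spread of its own.

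Collagens are secreted or membrane-bound proteins in which 3 chains wind into a triple helix, and the helix is built from repeats of glycine and any pair of other residues (Gly-X-Y). Fibrillar collagens carry a long unbroken helix and pack into fibrils in connective tissue, which in the brain means mainly the meninges and the walls of vessels. Basement membrane collagens, with collagen IV as their core, have a helix broken many times over and form the sheet under endothelium and around the brain surface. A few collagens are made by neurons themselves, and of these Col19a1 and Col25a1 have known roles at synapses or in axon targeting in mice.

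The 44 members comprised 11 fibrillar collagens, 9 basement membrane collagens, 3 neuronal collagens (Col19a1, Col23a1 and Col25a1), 6 collagen VI genes, 8 fibril-associated collagens and 7 short-chain and other collagens. These classes were drawn from textbook knowledge and used neither sequence nor counts. The longest run of glycine codons in this spacing set the fibrillar class apart from the others. It was 216 to 344 triplets in the 11 fibrillar genes (median 338), against 30 to 75 in the basement membrane genes (median 42), 40 to 57 in the neuronal genes and 37 to 87 in the collagen VI genes. Runs of at least 5 triplets numbered 2 to 3 in fibrillar genes, 11 to 27 in basement membrane genes and 5 to 11 in neuronal genes. Stretches of 30 codons are printed for 1 or 2 members of 4 classes to show an unbroken and a broken helix. They come from the coding strand of GENCODE mouse release M21 transcripts, run 5′ to 3′, and have each glycine codon in capitals. They show codons 97 to 126 of Col1a2 and 256 to 285 of Col6a1, the first 30 codons of the longest run. They also show codons 148 to 177 of Col4a1, 989 to 1018 of Col19a1 and 294 to 323 of Col25a1. Each of these is the last 15 codons of the longest run and the next 15, so it holds a break by choice.
Col1a2: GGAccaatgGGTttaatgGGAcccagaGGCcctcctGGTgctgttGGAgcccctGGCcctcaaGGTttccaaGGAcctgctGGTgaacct
Col6a1: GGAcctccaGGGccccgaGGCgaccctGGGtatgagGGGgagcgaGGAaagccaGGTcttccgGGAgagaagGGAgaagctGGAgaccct
Col4a1: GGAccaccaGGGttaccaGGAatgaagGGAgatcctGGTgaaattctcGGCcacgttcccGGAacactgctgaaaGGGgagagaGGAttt
Col25a1: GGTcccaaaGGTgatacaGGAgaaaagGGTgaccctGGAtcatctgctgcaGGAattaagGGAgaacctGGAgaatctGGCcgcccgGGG
Col19a1: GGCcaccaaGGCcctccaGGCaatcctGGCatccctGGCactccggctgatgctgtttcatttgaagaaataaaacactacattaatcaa
In Col1a2 and Col6a1 the Gly-X-Y spacing of glycine codons ran through the whole stretch. In Col4a1 and Col25a1 the spacing slipped and then resumed, while in Col19a1 the stretch ended with no further glycine codon. Whether a stretch held or broke was fixed by where it was taken, so the stretches illustrate and do not compare the genes.

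Col4a1 and Col4a2, whose chains join in 1 trimer, lie head to head on chromosome 8. In GENCODE their first exons overlap by 22 bases. The RefSeq promoter window of Col4a2 (GRCm38.p6, chr8:11312555-11312854, plus strand, 250 bases before to 50 after the start) is printed because both genes are the highest members of their class, with the 78 bases it shares with the Col4a1 window in capitals.
Col4a2: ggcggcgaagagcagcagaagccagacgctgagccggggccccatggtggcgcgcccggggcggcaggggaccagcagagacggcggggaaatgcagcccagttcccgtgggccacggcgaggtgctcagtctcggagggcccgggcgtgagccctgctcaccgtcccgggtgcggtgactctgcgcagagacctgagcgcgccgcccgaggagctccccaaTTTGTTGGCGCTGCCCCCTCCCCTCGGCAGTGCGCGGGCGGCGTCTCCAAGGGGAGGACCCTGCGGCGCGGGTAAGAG
The other collagen IV pairs are also divergent, with 71 bases between Col4a4 and Col4a3 on chromosome 1 and 1308 bases between Col4a6 and Col4a5 on chromosome X.

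Total counts ran from 5538908 to 12896134 in the Setd2SRI/wt libraries and from 4192021 to 16064644 in the wild-type libraries. All collagens together took 0.0598% to 0.0783% of a library, or 2506 to 11617 counts. Setd2 itself had 80.0, 95.1 and 116 CPM (counts scaled to a common library size, with factors from the trimmed mean of M-values, TMM) in Setd2SRI/wt brains, against 98.5, 97.3, 107 and 111 CPM in wild-type brains, which checks nothing for a missense allele. The tissue label held in all 7 libraries, with 6 neuron markers summing to 5941 to 7102 CPM in Setd2SRI/wt brains and 5600 to 6386 CPM in wild-type brains. The age label went against the data in every library. Mbp, the main myelin protein of mature oligodendrocytes, had 2403 to 3602 CPM, while the dividing-cell genes Top2a and Mki67 had 0.952 to 2.53 and 1.38 to 3.56 CPM. These markers were picked after their values were seen, and the cause was not tested. Pituitary transcripts were present mainly in 2 libraries, Setd2SRI/wt female 1 (14.3 CPM summed over 8 markers) and wild-type female 2 (29.8 CPM), against 3.30 and 4.66 CPM in the other Setd2SRI/wt libraries and 3.20 to 5.23 CPM in the other wild-type libraries. Values without these 2 libraries are given where they change a call or a direction. That setting was chosen after the data were seen, and of the Setd2SRI/wt brains it keeps only the male and female 2.

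Per kilobase of merged exons, Col6a1, a chain of the beaded filaments of collagen VI, was the highest collagen. It had 24.8, 18.1 and 18.5 CPM per kb in Setd2SRI/wt brains and 16.9, 10.6, 13.6 and 15.9 CPM per kb in wild-type brains. The collagen IV chains Col4a2 and Col4a1 followed with means over 7 libraries of 11.7 and 7.53 CPM per kb, and the neuronal collagen Col25a1 with 6.96 CPM per kb. The ranges of Col6a1 (10.6 to 24.8) and Col4a2 (9.81 to 15.7) overlapped between libraries, as did those of Col4a1 (6.57 to 8.96) and Col25a1 (4.98 to 9.08). Below them lay Col9a3 (4.84), Col11a2 (4.27), Col16a1 (4.09), Col19a1 (3.87) and Col5a1 (3.29 CPM per kb). The classical connective tissue collagens had means of 1.17 CPM per kb for Col1a2, 1.10 for Col1a1 and 0.241 for Col3a1, which ranked 18, 20 and 36 of the 44. In all, 21 of 44 members had a mean of at least 1 CPM per kb.

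This order depends on the length used. GENCODE merges 12947 bases of exons for Col25a1, but its transcript with the longest coding sequence has 2624 bases. With that transcript as the length, Col25a1 was the highest of all collagens at 34.3 CPM per kb, above Col6a1 at 18.1. Its ratio to Col19a1 was 1.80 with merged exons and 5.49 with transcripts. Which isoforms the brains express cannot be read from gene counts.

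**Figure D1:**
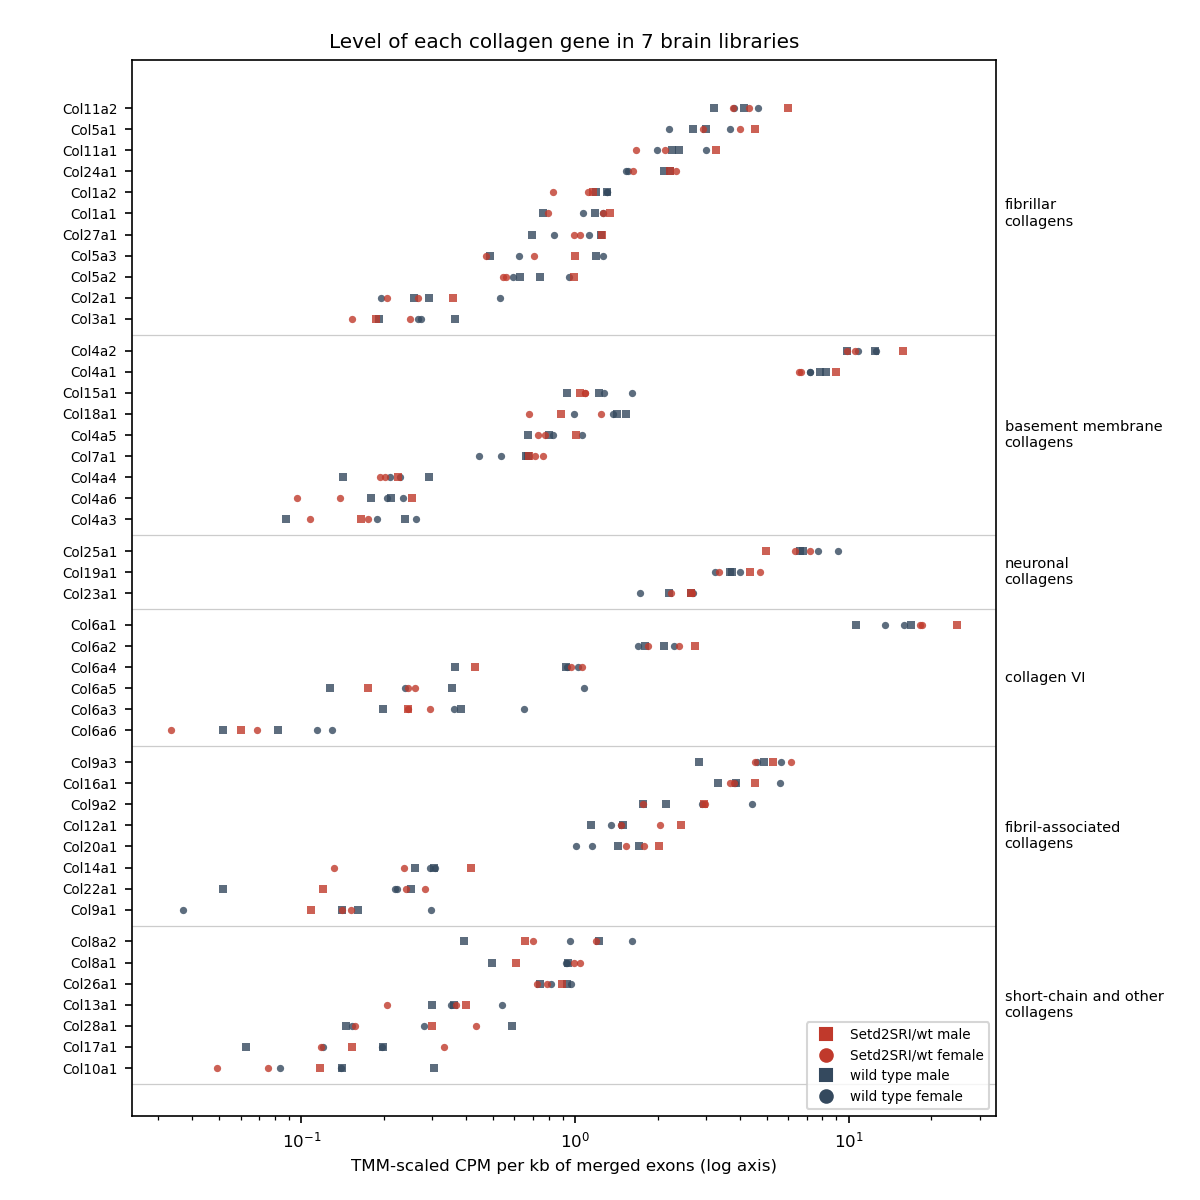
Level of each of the 44 collagen genes in TMM-scaled CPM per kb of merged exons (log axis), grouped by class, with 1 point per library (red Setd2SRI/wt, dark blue wild type, squares males, circles females). Col6a1, Col4a2, Col4a1 and Col25a1 lie at the top, and Col3a1 lies near 0.241 CPM per kb.

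The shares of the classes in the collagen level depended on the same choice. With merged exons, basement membrane collagens made up 25.2% of the summed CPM per kb over the 7 libraries, collagen VI 22.0%, fibrillar collagens 18.4%, fibril-associated collagens 16.4%, neuronal collagens 14.1% and the short-chain and other group 3.84%. With transcript lengths the neuronal class was the largest at 30.3%, ahead of basement membrane collagens at 18.1%, collagen VI at 17.2% and fibrillar collagens at 16.5%. The sums by library that follow use merged exons. Fibrillar collagens summed to 18.1 ± 3.67 CPM per kb in Setd2SRI/wt brains and 16.6 ± 2.24 CPM per kb in wild-type brains (SD, n = 3 and 4, as in the sums that follow). Basement membrane collagens summed to 23.5 ± 4.75 CPM per kb in Setd2SRI/wt brains and 23.7 ± 1.63 CPM per kb in wild-type brains. Neuronal collagens summed to 12.8 ± 0.730 CPM per kb in Setd2SRI/wt brains and 13.5 ± 1.51 CPM per kb in wild-type brains. The genotypes overlapped in all 3 of these classes, and their means differed by less than the larger SD. Collagen VI was the class with the widest gap, at 24.2 ± 3.70 CPM per kb in Setd2SRI/wt brains (28.4, 21.6 and 22.5) and 18.0 ± 3.53 CPM per kb in wild-type brains (20.5, 13.4, 17.0 and 21.02). All 3 Setd2SRI/wt sums lay above the 4 wild-type sums, narrowly at 21.6 against 21.02. Most of each sum is Col6a1, so the gap is largely that of 1 gene. Of the 6 collagen VI genes, 4 had a fitted log2 fold change (Setd2SRI/wt over wild type) below 0. The class median was -0.47. None of the class sums has a test. In RNA from a whole tissue, fewer cells of a type and less RNA per cell cannot be told apart.

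**Figure D2:**
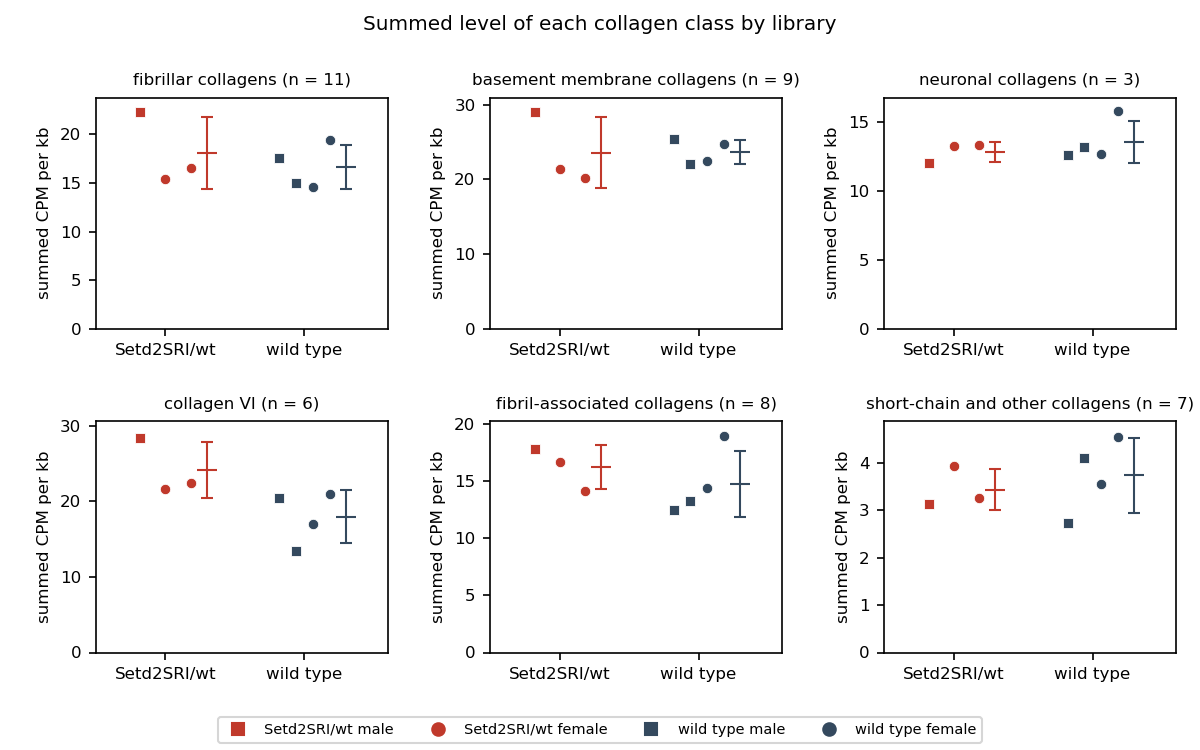
Summed CPM per kb of the members of each collagen class, 1 point per library (squares males, circles females), with the mean and SD of each genotype to the right of its points. The collagen VI sum, most of it Col6a1, lies higher in the 3 Setd2SRI/wt libraries. In the fibrillar and basement membrane classes the Setd2SRI/wt male is the highest point.

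Single libraries stood out. Among the 41 members with a mean of at least 1 CPM, the Setd2SRI/wt male was the highest library for 14 (34.1%), against 18.8% of all genes past the same level. Wild-type female 2 was the highest for 13 (31.7%, against 16.6% of all genes), and wild-type male 2, the shallowest library, was the lowest for 12 (29.3%, against 13.8%). The Setd2SRI/wt male was highest for 6 of 11 fibrillar genes. The median fibrillar gene lay 0.30 above its own mean over the 7 libraries (log2 of CPM + 0.5) in the Setd2SRI/wt male, but 0.09 and 0.15 below it in Setd2SRI/wt females 1 and 2. In wild-type brains the same median was 0.02 above in male 1, 0.13 below in male 2, 0.22 below in female 1 and 0.19 above in female 2. The male and the females of the Setd2SRI/wt genotype thus stood on opposite sides for this class. Endothelial and mural cell markers summed highest in the Setd2SRI/wt male too, at 318 and 270 CPM, against 223 to 270 and 202 to 214 CPM in the Setd2SRI/wt females and 247 to 261 and 192 to 231 CPM in wild-type brains. Meningeal fibroblast markers did not follow, at 109 CPM in the Setd2SRI/wt male, against 122 and 107 CPM in Setd2SRI/wt females 1 and 2. They summed to 112 to 138 CPM in wild-type brains. The part of these cells in the collagen values was not tested.

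**Figure D3:**
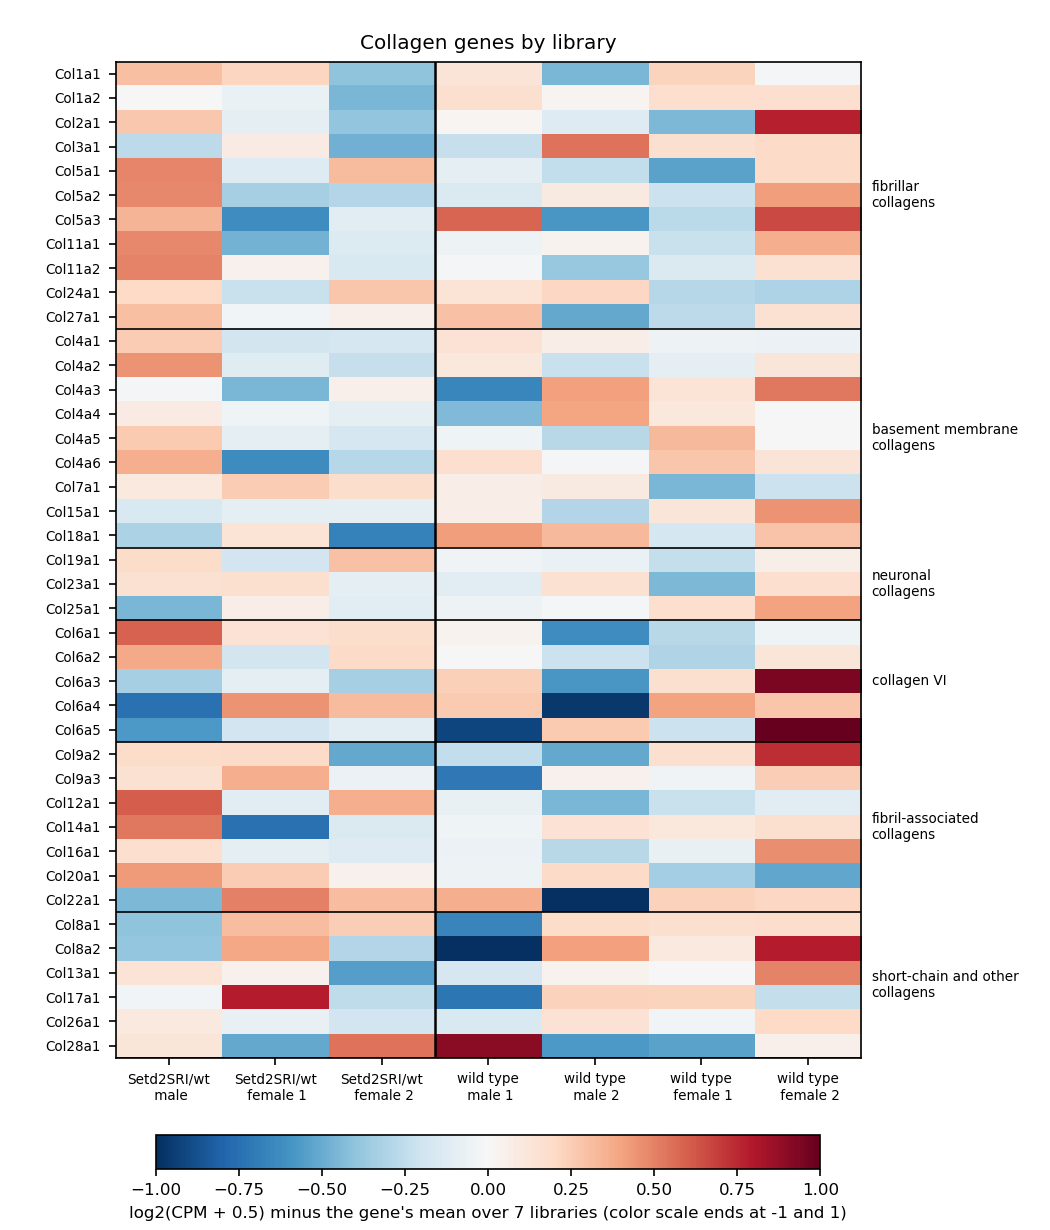
Deviation of each of the 41 collagen genes with a mean of at least 1 CPM from its own mean over the 7 libraries, on the log2(CPM + 0.5) scale, with genes down the side by class and libraries across. The Setd2SRI/wt male column is mostly red in the fibrillar block, where its median is 0.30, and the Setd2SRI/wt female columns are mostly blue.

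No collagen gene passed the genotype test. Of the 43 members with enough counts to test, 0 had an adjusted p under 0.05 in edgeR's quasi-likelihood F-test with Benjamini-Hochberg adjustment over all 17260 genes tested, where 3 genes (0.0174%) passed. DESeq2 and limma-voom also called 0 collagens, and none passed at an adjusted p under 0.1, where 0.029% of all genes did. The lowest adjusted p of a collagen was 0.219 in edgeR and 0.113 in DESeq2. At an unadjusted p under 0.05 there were 8 collagens of 43, against 8.95% of all genes tested. The higher 4 in Setd2SRI/wt brains were Col6a1, Col12a1, Col20a1 and Col5a1 (3.84% of all genes were higher at that level), and the lower 4 were Col25a1, Col6a3, Col6a5 and Col18a1 (5.11% of all genes).

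The directions were mixed. The fitted log2 fold change (Setd2SRI/wt over wild type) was positive for 16 members and negative for 27, with 48.6% of all genes negative. Its median was -0.07 over the 43 collagens, against 0.01 over all tested genes. Medians by class were -0.04 for fibrillar, -0.07 for basement membrane, 0.15 for neuronal, -0.47 for collagen VI, -0.05 for fibril-associated and -0.03 for short-chain and other collagens. Leaving out 1 library at a time was run for the first 3 of these classes and moved all 3 medians. For fibrillar collagens it was -0.39 when the Setd2SRI/wt male was left out and 0.21 when wild-type female 2 was. For basement membrane collagens it was -0.34 without that male, -0.21 without wild-type male 1 and 0.01 without wild-type female 1. For neuronal collagens it was -0.011 without wild-type female 1 and 0.29 without wild-type female 2. Groups did not overlap for 3 members, Col6a1 and Col7a1 with all Setd2SRI/wt libraries higher (3.83% of all genes tested) and Col1a2 with all lower (4.08%).

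**Figure D4:**
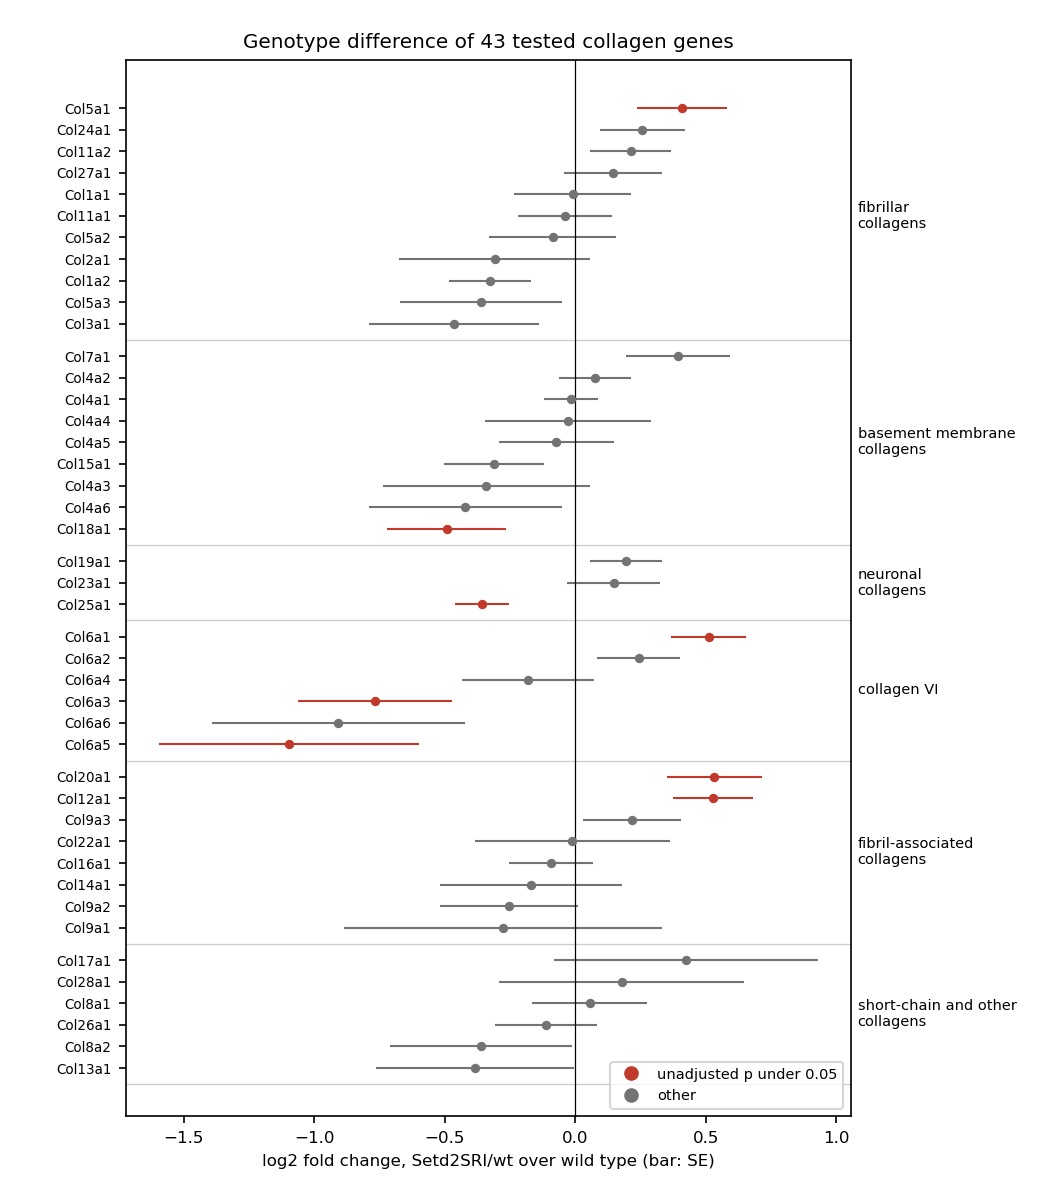
Log2 fold change of Setd2SRI/wt over wild type for the 43 tested collagen genes, with the SE as a bar, ordered by size within each class. The 8 red points had an unadjusted p under 0.05, and none had an adjusted p under 0.05.

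Fibrillar collagens had adjusted p-values of 0.476 to 0.997 in edgeR. Col5a1, a minor chain that seeds fibrils and limits their diameter (chromosome 2, 27886425 to 28039514, mm10 as all positions here), had 38.5, 24.8 and 34.1 CPM in Setd2SRI/wt brains, against 25.5, 22.8, 18.6 and 31.2 CPM in wild-type brains. Its log2 fold change was 0.41 ± 0.17 (SE, edgeR adjusted p = 0.476). The groups overlapped through Setd2SRI/wt female 1 and wild-type female 2. These are the 2 libraries with pituitary transcripts, and without them the log2 fold change of Col5a1 was 0.75 with an edgeR adjusted p of 0.0254, the lowest of 19 settings, the highest being 1. In that fit 57 of 16838 genes (0.339%) were called. The setting was chosen after the data were seen. It removes the lowest Setd2SRI/wt value and the highest wild-type value of Col5a1, which takes away the overlap.

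Col1a2, the gene of the alpha-2 chain of collagen I (chromosome 6, 4504814 to 4541544) with 30 codons printed above, showed the other direction. It had 14.5, 13.8 and 10.4 CPM in Setd2SRI/wt brains and 16.2, 14.8, 16.2 and 16.2 CPM in wild-type brains. All 3 Setd2SRI/wt values lay below the 4 wild-type values, by a narrow margin, and the log2 fold change was -0.33 ± 0.16 (SE, edgeR adjusted p = 0.572). Its partner chain Col1a1 overlapped between genotypes, with 8.79, 8.28 and 5.22 CPM in Setd2SRI/wt brains and 7.78, 4.996, 8.31 and 7.01 CPM in wild-type brains. Col11a2 and Col11a1, minor fibril chains best known from cartilage, were, with Col5a1, the highest fibrillar genes per kilobase. Col11a2 had 41.0, 29.7 and 25.9 CPM in Setd2SRI/wt brains and 28.4, 22.1, 26.1 and 32.1 CPM in wild-type brains. Col11a1 had 41.8, 21.3 and 27.0 CPM in Setd2SRI/wt brains and 28.7, 30.5, 25.4 and 38.4 CPM in wild-type brains. For both, the Setd2SRI/wt male was the highest of all 7 libraries and the Setd2SRI/wt females lay inside the wild-type range or below it.

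The remaining fibrillar genes overlapped between genotypes. Col3a1, a fibril chain of soft tissue and a ligand of the receptor Adgrg1 in the developing cortex, had 1.83, 2.45 and 1.501 CPM in Setd2SRI/wt brains and 1.88, 3.57, 2.62 and 2.68 CPM in wild-type brains, on 10 to 42 counts a library. Means over 7 libraries ranged from 2.78 CPM for the cartilage collagen Col2a1 to 14.8 CPM for Col24a1 among the others (Col2a1, Col5a2, Col5a3, Col24a1 and Col27a1). Meningeal fibroblast markers, 12 genes of which 2 were under 1 CPM and none was at 0 throughout, summed to 107 to 122 CPM in Setd2SRI/wt brains and 112 to 138 CPM in wild-type brains. Cartilage and bone markers summed to 28.8 to 34.1 CPM in Setd2SRI/wt brains and 28.8 to 37.8 CPM in wild-type brains, with 7 of 13 under 1 CPM and the bone gene Bglap at 0 in every library. The part of these tissues in the fibrillar values was not tested.

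Basement membrane collagens had edgeR adjusted p-values of 0.552 to 0.992. Col4a1 (chromosome 8, 11198423 to 11312826) had 66.9, 49.1 and 49.7 CPM in Setd2SRI/wt brains and 61.7, 58.5, 54.0 and 53.6 CPM in wild-type brains. Col4a2 (chromosome 8, 11312805 to 11449287) had 104, 69.9 and 65.0 CPM in Setd2SRI/wt brains and 82.1, 65.2, 71.2 and 83.0 CPM in wild-type brains. In both, the Setd2SRI/wt male was the highest library. The level of Col4a2 over Col4a1 per kilobase was 1.76, 1.61 and 1.47 in Setd2SRI/wt brains and 1.502, 1.26, 1.49 and 1.74 in wild-type brains, so the ratio varied less than 1.5-fold among the 7 brains and overlapped between genotypes. The tissue-restricted chains Col4a3, Col4a4, Col4a5 and Col4a6, known from kidney and other special basement membranes, were lower, with means of 0.175, 0.213, 0.840 and 0.189 CPM per kb.

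Col18a1, the basement membrane proteoglycan whose end is released as endostatin (chromosome 10, 77052178 to 77166548), had 6.23, 8.74 and 4.74 CPM in Setd2SRI/wt brains and 10.7, 9.99, 6.94 and 9.69 CPM in wild-type brains. Wild-type female 1 lay among the Setd2SRI/wt values, and the log2 fold change was -0.49 ± 0.23 (SE, edgeR adjusted p = 0.552). Col7a1, the anchoring fibril collagen best known from skin, had 6.96, 7.82 and 7.35 CPM in Setd2SRI/wt brains and 6.78, 6.90, 4.56 and 5.50 CPM in wild-type brains. Its groups did not overlap, but they nearly met at 6.96 CPM in the Setd2SRI/wt male and 6.90 CPM in wild-type male 2, and the log2 fold change was 0.39 ± 0.20 (SE, edgeR adjusted p = 0.614). Col15a1, a relative of Col18a1, had 6.59, 6.90 and 6.88 CPM in Setd2SRI/wt brains and 7.78, 5.95, 8.06 and 10.3 CPM in wild-type brains, which overlapped through wild-type male 2.

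Neuronal collagens had edgeR adjusted p-values of 0.252 to 0.891, and the 3 genes did not share a direction. Col25a1, a transmembrane collagen of neurons first found in amyloid plaques and needed in mice for motor axons to enter muscle (chromosome 3, 130131501 to 130599877), had 64.5, 92.9 and 82.2 CPM in Setd2SRI/wt brains and 85.7, 88.3, 99.6 and 118 CPM in wild-type brains. Its means were 79.9 ± 14.4 CPM in Setd2SRI/wt brains and 97.8 ± 14.5 CPM in wild-type brains (SD, n = 3 and 4), with a log2 fold change of -0.36 ± 0.11 (SE, edgeR adjusted p = 0.252). Setd2SRI/wt female 1 lay above 2 of the 4 wild-type libraries, both of them male. Within females the Setd2SRI/wt values (92.9 and 82.2) lay below the wild-type values (99.6 and 118), and the Setd2SRI/wt male lay below both wild-type males. Groups within a sex hold only 1 or 2 brains. The share of all genes with such an order was not counted, so it adds no support.

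Col19a1, which hippocampal interneurons secrete and which supports inhibitory synapses in mice (chromosome 1, 24261890 to 24587472), had 30.04, 23.2 and 32.5 CPM in Setd2SRI/wt brains and 25.9, 25.2, 22.3 and 27.6 CPM in wild-type brains. Its log2 fold change was 0.20 ± 0.14 (SE, edgeR adjusted p = 0.766). Col23a1, a transmembrane collagen, had 15.2, 15.3 and 12.8 CPM in Setd2SRI/wt brains and 12.7, 15.2, 9.87 and 15.4 CPM in wild-type brains. Both genes overlapped between genotypes. Markers of neurons of different brain regions differed beside these genes. The 5 midbrain and thalamus markers summed to 107 to 152 CPM in Setd2SRI/wt brains and 221 to 249 CPM in wild-type brains, and the 5 cortex markers to 1014 to 1063 CPM in Setd2SRI/wt brains and 673 to 932 CPM in wild-type brains. None of these 10 markers was at 0, and neither sum overlapped between genotypes. Both lists were chosen with earlier results of these data known, so their separation is not independent evidence. Their part in the Col25a1 values was not tested.

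The collagen VI genes, which hold the collagen highest per kilobase of merged exons, had edgeR adjusted p-values of 0.219 to 0.914. Col6a1 (chromosome 10, 76708792 to 76726168) had 108, 79.4 and 81.2 CPM in Setd2SRI/wt brains, against 73.9, 46.6, 59.4 and 69.9 CPM in wild-type brains. All 3 Setd2SRI/wt libraries lay above all 4 wild-type libraries. The means were 89.7 ± 16.3 CPM in Setd2SRI/wt brains and 62.4 ± 12.2 CPM in wild-type brains (SD, n = 3 and 4), and the log2 fold change was 0.51 ± 0.14 (SE, edgeR adjusted p = 0.219). With no filter on low counts the same gene had a log2 fold change of 0.49 and an edgeR adjusted p of 0.00666, in a fit that called 331 of 33585 genes (0.986%). Over 19 settings its log2 fold change ran from 0.31 to 0.64 and its adjusted p from 0.00666 to 1.00. Without the Setd2SRI/wt male the log2 fold change was 0.31.

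Col6a2, the neighbour of Col6a1 on chromosome 10 which encodes the alpha-2 chain of the same trimer, had 22.9, 15.3 and 20.0 CPM in Setd2SRI/wt brains and 17.6, 14.99, 14.1 and 19.1 CPM in wild-type brains, which overlapped. Col6a3, the long alpha-3 chain (chromosome 1, 90765923 to 90843971), had 2.93, 3.53 and 2.92 CPM in Setd2SRI/wt brains and 4.58, 2.38, 4.31 and 7.79 CPM in wild-type brains. Wild-type male 2 was the lowest of all 7 and wild-type female 2 the highest, and the log2 fold change was -0.77 ± 0.29 (SE, edgeR adjusted p = 0.421). The chains of 1 trimer were unequal in mRNA level per kilobase. Per kilobase, Col6a1 was 101, 61.5 and 75.9 times as high as Col6a3 in Setd2SRI/wt brains, against 44.0, 53.5, 37.6 and 24.5 times in wild-type brains. These ratios did not overlap between genotypes, rest on 10 to 119 counts of Col6a3 a library and have no test. Col6a1 alone did not overlap either, and Col6a3 leaned the other way, so the ratio adds no separate result. The ratio of Col6a2 to Col6a1 overlapped between genotypes, at 0.102 to 0.169 over all libraries. It depends on the length used: from mean levels it was 0.126 with merged exons and 0.248 with transcript lengths.

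Col6a4, Col6a5 and Col6a6 encode chains that can replace alpha-3. Col6a5 had 1.65, 2.30 and 2.45 CPM in Setd2SRI/wt brains and 1.19, 3.33, 2.25 and 10.1 CPM in wild-type brains, and was named after its values were seen, because its unadjusted p was under 0.05. The log2 fold change of -1.10 ± 0.50 (SE, edgeR adjusted p = 0.542) rested on wild-type female 2, and it was 0.0082 without that library and 0.029 without both libraries with pituitary transcripts. With no filter on low counts it was -1.12 with an edgeR adjusted p of 0.0147, and over 19 settings the adjusted p ran from 0.0147 to 1.00. Col6a4 had 3.66, 9.05 and 8.22 CPM in Setd2SRI/wt brains and 7.91, 3.09, 8.75 and 7.99 CPM in wild-type brains. Col6a6 was the lowest collagen per kilobase, with 2 to 19 counts a library.

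Fibril-associated collagens, which sit on the surface of fibrils and link them to their surroundings, had edgeR adjusted p-values of 0.236 to 0.997. Col12a1, a long member of this class (chromosome 9, 79598991 to 79718831), had 37.0, 22.4 and 31.1 CPM in Setd2SRI/wt brains and 22.8, 17.4, 20.6 and 22.3 CPM in wild-type brains. Setd2SRI/wt female 1 lay just below wild-type male 1, and otherwise the groups were apart. The means were 30.1 ± 7.35 CPM in Setd2SRI/wt brains and 20.8 ± 2.47 CPM in wild-type brains (SD, n = 3 and 4), and the log2 fold change was 0.53 ± 0.15 (SE, edgeR adjusted p = 0.236). With no filter it had a log2 fold change of 0.50 and an edgeR adjusted p of 0.0455 (331 of 33585 genes called). Without the 2 libraries with pituitary transcripts these were 0.71 and 0.0487 (57 of 16838 genes called). The latter setting, chosen after the data were seen, removes Setd2SRI/wt female 1, the lowest library of its genotype for Col12a1. Over 19 settings the adjusted p of Col12a1 ran from 0.0455 to 1.00, and without the Setd2SRI/wt male its log2 fold change was 0.33.

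Col20a1, another member of the class (chromosome 2, 180986535 to 181018363), had 10.4, 9.20 and 7.90 CPM in Setd2SRI/wt brains and 7.34, 8.80, 5.94 and 5.17 CPM in wild-type brains. Only wild-type male 2 lay inside the Setd2SRI/wt range, and the log2 fold change was 0.53 ± 0.18 (SE, edgeR adjusted p = 0.358). Col9a3, a chain of the collagen IX that coats cartilage fibrils, was the highest of the class per kilobase. It had 20.3, 23.6 and 17.5 CPM in Setd2SRI/wt brains and 10.9, 18.8, 17.7 and 21.7 CPM in wild-type brains, and it shares 234 exon bases with Tcfl5 on the opposite strand. Its partner chain Col9a2 had 9.16, 9.20 and 5.45 CPM in Setd2SRI/wt brains and 6.65, 5.47, 8.9995 and 13.7 CPM in wild-type brains, and Col16a1 had 30.6, 25.6 and 24.9 CPM in Setd2SRI/wt brains and 26.1, 22.4, 25.9 and 37.7 CPM in wild-type brains. Wild-type female 2 was the highest library for both. Col14a1, Col22a1 and Col9a1 had means of at most 1.96 CPM and overlapped between genotypes.

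**Figure D5:**
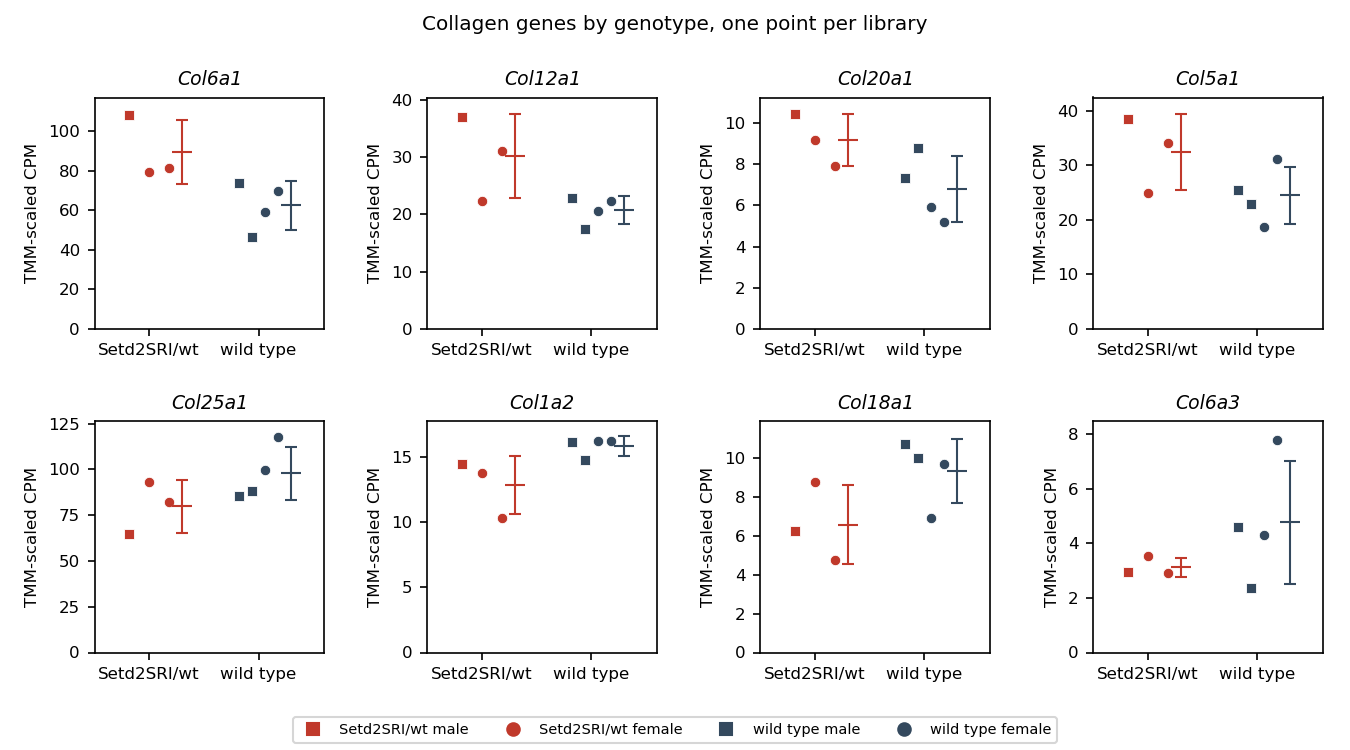
TMM-scaled CPM of 8 collagen genes named for their small unadjusted p or their separated groups, 1 point per library (squares males, circles females), with the mean and SD of each genotype beside its points. For Col6a1 the 3 Setd2SRI/wt points, 79.4 to 108 CPM, lie above the wild-type points, and for Col1a2 they lie below them.

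The short-chain and other collagens were the lowest class, with edgeR adjusted p-values of 0.858 to 0.971. The network collagens Col8a1 and Col8a2 of vessel walls and cornea led it per kilobase of merged exons, but by transcript length Col26a1 did, at 2.52 CPM per kb against 1.30 for Col8a1 and 0.998 for Col8a2. Col8a2 had 2.93, 5.37 and 3.16 CPM in Setd2SRI/wt brains and 1.76, 5.47, 4.31 and 7.27 CPM in wild-type brains, a log2 fold change of -0.36 ± 0.35 (SE, edgeR adjusted p = 0.858). Col8a1 had 4.76, 8.13 and 7.74 CPM in Setd2SRI/wt brains and 3.89, 7.38, 7.25 and 7.33 CPM in wild-type brains. Wild-type male 1 was the lowest library for both, as it was for Col9a3. The same library had the lowest sum of 7 choroid plexus markers, at 195 CPM, against 596 to 945 CPM in Setd2SRI/wt brains and 688 to 775 CPM in the other wild-type brains. None of these markers was at 0, and their part in the collagen values was not tested. Col26a1, next to them in level, had 7.33, 6.44 and 5.93 CPM in Setd2SRI/wt brains and 6.09, 7.61, 6.69 and 7.92 CPM in wild-type brains. Col13a1, a transmembrane collagen of the neuromuscular junction, had 1.83, 1.69 and 0.948 CPM in Setd2SRI/wt brains and 1.38, 1.67, 1.62 and 2.49 CPM in wild-type brains, with a log2 fold change of -0.38 ± 0.38 (SE, edgeR adjusted p = 0.863). Col10a1, the collagen of hypertrophic cartilage, had 1 to 7 counts a library and was not tested.

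By sex, 0 of 43 collagens passed in edgeR's test (8 of 17260 genes, 0.0463%, passed), and 0 passed in DESeq2 or limma-voom. At an unadjusted p under 0.05 there were 8 collagens, against 4.72% of all genes tested. Col4a1, Col20a1 and Col24a1 were higher in males and Col6a4, Col6a5, Col8a1, Col8a2 and Col25a1 were lower in males. Col25a1 averaged 79.5 CPM over 3 males and 98.1 CPM over 4 females, with a log2 fold change of male over female of -0.37 ± 0.11 (SE, edgeR adjusted p = 0.874). With no filter, Col6a5 passed (log2 fold change -1.46, edgeR adjusted p = 6.08e-04) in a fit that called 136 genes (0.405%). The product of genotype and sex passed for 0 of 43 collagens and for 0 of 17260 genes (0%) in edgeR. It had an unadjusted p under 0.05 for 5 collagens, Col4a2, Col5a2, Col9a2, Col11a1 and Col11a2, against 3.33% of all genes. In all 5 the log2 fold change of Setd2SRI/wt over wild type was larger in males than in females, by 0.68 to 1.23, and the single Setd2SRI/wt male is 1 side of the comparison.

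Genes that build, bind or break down collagen were read from 5 further lists, and 0 of their 71 tested genes passed in edgeR (0.0174% of all genes tested did). At an unadjusted p under 0.05, 3.84% of all genes tested were higher in Setd2SRI/wt brains and 5.11% were lower. These are the shares to set beside the counts of each list. Among 23 tested genes for folding, modification and crosslinking, 0 were higher and 1 lower at an unadjusted p under 0.05, with a median log2 fold change of -0.08. The lower one was P4ha3, a catalytic subunit of collagen prolyl hydroxylase, with 2.20, 2.91 and 3.40 CPM in Setd2SRI/wt brains and 5.33, 5.47, 3.37 and 5.63 CPM in wild-type brains (log2 fold change -0.72 ± 0.27 SE, edgeR adjusted p = 0.411). Serpinh1, the collagen chaperone, had 17.8, 18.9 and 10.9 CPM in Setd2SRI/wt brains and 18.4, 16.7, 18.2 and 14.7 CPM in wild-type brains. Among 15 tested genes for procollagen processing and fibril partners, 1 was higher and 2 lower at that level, with a median of -0.11.

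Sparc, a secreted collagen-binding glycoprotein, had the smallest p of these lists. It had 259, 364 and 241 CPM in Setd2SRI/wt brains, against 419, 418, 418 and 621 CPM in wild-type brains. The groups did not overlap, with Setd2SRI/wt lower (4.08% of all genes tested), and the log2 fold change was -0.75 ± 0.15 (SE, edgeR adjusted p = 0.112). DESeq2 gave an adjusted p of 0.00173 (64 of 17260 genes called). Without the 2 libraries with pituitary transcripts edgeR gave 0.00765 (57 of 16838 genes called). Sparc was below 0.05 in 5 of 19 settings, each of which called more genes in all than the fit reported. Among them was the replicate block in females (edgeR adjusted p = 0.0276, 80 of 17014 genes called), whose numbers only share a label. Over the 19 settings the adjusted p of Sparc ran from 2.24e-09, in edgeR with no filter (331 of 33585 genes called), to 0.698. Bmp1, the proteinase that trims procollagen ends, had 85.7, 58.0 and 61.0 CPM in Setd2SRI/wt brains and 56.2, 52.6, 46.1 and 54.0 CPM in wild-type brains. Its groups did not overlap, with Setd2SRI/wt higher (3.83% of all genes tested), and the log2 fold change was 0.41 ± 0.11 (SE, edgeR adjusted p = 0.216). Leaving out the 2 libraries with pituitary transcripts removes the lowest Setd2SRI/wt value, and the log2 fold change of Bmp1 was then 0.54. Its edgeR adjusted p in that setting was 0.0462 (57 of 16838 genes called), the lowest of 19 settings, the highest being 1.00. Adamts2, which trims the other end, had 8.79, 9.35 and 9.64 CPM in Setd2SRI/wt brains and 14.1, 10.5, 10.8 and 18.7 CPM in wild-type brains. It also had no overlap, with Setd2SRI/wt lower (4.08% of all genes tested).

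Among 10 tested collagen receptors, none had an unadjusted p under 0.05, and the smallest was that of the integrin chain Itga11. It had 2.75, 2.76 and 4.03 CPM in Setd2SRI/wt brains and 2.20, 2.62, 2.06 and 2.23 CPM in wild-type brains. The groups did not overlap, with Setd2SRI/wt higher (3.83% of all genes tested), and the log2 fold change was 0.55 ± 0.28 (SE, edgeR adjusted p = 0.609). Adgrg1, the receptor of Col3a1, had 61.5, 71.3 and 52.3 CPM in Setd2SRI/wt brains and 81.5, 58.5, 64.4 and 87.1 CPM in wild-type brains, which overlapped. Among 8 tested genes of collagen degradation, 0 were higher and 2 lower at that level. Timp2, an inhibitor of matrix metalloproteinases, had 236, 325 and 273 CPM in Setd2SRI/wt brains and 324, 324, 319 and 375 CPM in wild-type brains (log2 fold change -0.31 ± 0.11 SE, edgeR adjusted p = 0.389). Among 15 other basement membrane proteins, 1 was higher and 1 lower at that level, with a median of -0.08. The higher one was the laminin chain Lamb1, with 27.7, 27.6 and 22.6 CPM in Setd2SRI/wt brains and 19.2, 22.8, 20.8 and 21.5 CPM in wild-type brains (log2 fold change 0.30 ± 0.13 SE, edgeR adjusted p = 0.496).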

How the data were processed

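The submitters' processing notes name Trim Galore, HISAT2, featureCounts and the mm10 build. The deposited values are raw counts per gene, one column a library. Tool versions and the strand used in counting are not stated in the labels. The 13 members that share exon bases with another gene are therefore uncertain: Col3a1, Col4a1, Col4a2, Col4a3, Col5a1, Col6a4, Col6a6, Col7a1, Col9a3, Col10a1, Col15a1, Col20a1 and Col22a1. Low genes were removed by filterByExpr. The rest were TMM-scaled and tested by edgeR 4.0.16 in R 4.3.3 (two-sided quasi-likelihood F-test, terms for genotype and sex), with Benjamini-Hochberg adjustment over all tested genes and a threshold of 0.05. Each SE was obtained as |log2 fold change|/√F. Lengths are merged exons of GENCODE M21, since the table holds none. The fits were tested on simulated data.

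Alternatives were DESeq2 1.42.0, limma 3.58.1 (voom) and the settings of the closing section. Members and gene lists were chosen with earlier results of these data known. Every library's value is given for the 3 members of each class highest per kilobase and the 2 of smallest unadjusted p, and for the smallest-p gene and up to 4 more of each other list. Replicates differed beyond counting error (chi-square per degree of freedom 2.80 to 12.3).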

Additional observations from a re-analysis of the deposited data

Results flagged for a closer look

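In the 4 wild-type libraries, 47 genes (the 41 members with a mean of at least 1 CPM and 6 genes of the other lists, namely P4ha3, Sparc, Bmp1, Itga11, Timp2 and Lamb1) were checked for 1 library far from the other 3, by the gap to its nearest neighbour as a share of the whole range. Chance flags about 1 in 20 such groups, and 7 passed Dixon's critical value for 4 samples. Wild-type male 2, the shallowest library, was the low one for Col1a2 (0.961, at 14.8 CPM), Col6a4 (0.851, at 3.09 CPM) and Col22a1 (0.842, at 0.476 CPM). These values rest on 62, 13 and 2 counts in that library, so counting error alone is large for them. Wild-type male 1 was low for Col8a1 (0.964, at 3.89 CPM). Wild-type female 1 was low for P4ha3 (0.868, at 3.37 CPM). Wild-type female 2, the library with the most pituitary transcripts, was high for Sparc (0.999, at 621 CPM) and Timp2 (0.898, at 375 CPM). For Sparc the other 3 wild-type libraries lay between 418 and 419 CPM.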

How the results depend on the processing

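Collagens called by genotype numbered 0 in the fit reported, 3 with no filter on low counts (Col6a1, Col12a1 and Col6a5) and 2 without the pituitary libraries (Col5a1 and Col12a1), a setting chosen after seeing the data, and 0 in every other setting. Genes called in all numbered 3, and then 5 at an adjusted p under 0.1, 1 with total counts, 331 with no filter, 1 with a mean CPM of at least 1, 64 in DESeq2, 1 in limma-voom, 0 with no sex term (1425 at an unadjusted p under 0.05), 57 without the pituitary libraries and 0 to 110 with 1 library left out. In females alone it was 1 without and 80 with the replicate block, and 0 collagens were called either way. The replicate numbers only share a label, since deviations of same-numbered females had r = -0.0576. By sex, 1 collagen was called with no filter. The fibrillar median log2 fold change was -0.39 in females alone, -0.388 with the replicate block and 0.26 without the pituitary libraries, and -0.39 to 0.21 with 1 library left out. The basement membrane median was -0.33 in females, -0.31 with the block and -0.34 to 0.011 with 1 library left out. The neuronal median ran from -0.011 to 0.29 with 1 library left out. The median of all collagens was -0.22 in females, -0.22 with the block, 0.079 without the pituitary libraries and -0.23 to 0.036 with 1 library left out. The log2 fold change of Col6a5 was -1.10, but 0.0082 without wild-type female 2, 0.029 without the pituitary libraries and as low as -1.61 without wild-type female 1. The cause of these differences was not tested. Depth limits the low members most: Col6a6 had 2 counts in Setd2SRI/wt female 1 and in wild-type male 2.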

Other observations

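The letters CCAAT, the binding motif of NF-Y, were searched on both strands of the RefSeq promoter windows. Of the 44 collagen genes, 35 had a window, and 13 of these (37.1%) held the motif, against 41.1% of all 27025 genes with a window. A match is a description of letters, not a site.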
